A study of Rattus norvegicus with 21 samples.

Results

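The genes described here build the route that new secretory proteins take from the ribosome to the Golgi: translocation into the endoplasmic reticulum (ER), removal of the signal peptide, attachment of N-glycans, and vesicle transport between the ER and the Golgi. They were chosen by name, as 48 genes of 7 complexes, and 46 of the 48 had a row under that symbol in a count table of 17025 genes. All 46 passed the filter on low counts, so none was lost to it. Sec24d had no row, and Srp54a was absent by symbol, although its RefSeq gene ID, 116650, stood in the table as Srp54. That row is described separately and is not counted among the 46.

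The RNA came from primary pancreatic islets of Sprague Dawley rats, which hold several endocrine cell types with beta cells in the majority. Islets of 8 rats were pooled in each of 3 isolations, called preparations here, and each pool was divided over the culture groups, with about 1000 islet equivalents per library. Glucolipotoxic (GLT) medium held 27 mM glucose and 300 µM palmitate (written PA in the labels), and control medium held 11 mM glucose with no palmitate. The groups were 24 h GLT with compound E (2 libraries, preparations 1 and 2), 24 h GLT with compound D (3), 3 h GLT with compound E (1, preparation 2), 3 h GLT with compound D (3), 24 h GLT (3) and 3 h control (3), with both compounds at 300 nM. A further 6 libraries, numbered conditions 2 and 3 in each preparation, carry conflicting labels: the sample records call condition 2 the 24 h control and condition 3 the 3 h GLT group, and the deposited sample sheet calls them the other way round. They are named by their number below, and both readings are given where a comparison that uses them is first described. The labels give neither a structure nor a target for the compounds, and the pooling leaves no value for a single rat.

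Proteins bound for secretion carry a signal peptide that the signal recognition particle binds as it leaves the ribosome. The ribosome then docks at the Sec61 channel, signal peptidase removes the peptide, and oligosaccharyltransferase transfers a sugar chain to asparagine residues. COPII-coated vesicles carry folded cargo out of the ER, and COPI-coated vesicles bring escaped ER residents and transport receptors back from the Golgi. In beta cells preproinsulin is the main client of this route, and in mammalian cells many of its genes are targets of the XBP1 and ATF6 arms of the unfolded protein response, a programme that raises ER capacity when unfolded proteins build up.

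Promoter windows of 300 bases (250 before the annotated start to 50 after it, RefSeq, build GRCr8) were at hand for 42 of the 46 genes; Sec61a1, Sec24c, Sar1a and Kdelr2 were not among the windows. Each window was searched on both strands for 3 elements bound in the unfolded protein response: the UPRE core TGACGTGG, ERSE (CCAAT and CCACG with 9 bases between them) and ERSE-II (ATTGG and CCACG with 1 base between them). The reverse complement of the UPRE core holds CCACG, which ERSE and ERSE-II also end with, so the motifs can share bases. The UPRE core stood in the windows of 5 of the 42 genes (11.9%), against 100 of 13446 genes with a window (0.744%). ERSE was found in 0 of the 42 windows, against 0.119% of all genes, and ERSE-II in 0, against 0.0967%. A match of letters is not a measured binding site. The 5 stretches are shown because they include 3 COPI coat genes, the coat with the lowest median fold change with compound D. Each is written 5′ to 3′ on the strand of its gene with the motif in capitals.
Sec23a: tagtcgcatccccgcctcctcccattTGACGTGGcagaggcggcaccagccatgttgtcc
Copa: cctggggtagcTGACGTGGagcctttggga
Copb1: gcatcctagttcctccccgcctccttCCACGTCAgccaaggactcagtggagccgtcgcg
Copb2: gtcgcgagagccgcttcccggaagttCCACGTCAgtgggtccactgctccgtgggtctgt
Kdelr3: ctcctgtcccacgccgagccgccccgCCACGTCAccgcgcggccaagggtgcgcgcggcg

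The Sec23a stretch is chr6:82440962-82441021 (minus strand), with the motif from -91 to -84 relative to the start site at 0. Sec23a encodes the COPII subunit that switches on GTP hydrolysis by SAR1. The Copa stretch is chr13:87078887-87078916 (plus strand), with the motif at 30 to 37, inside the transcribed part of the window. Copa encodes the alpha subunit of the COPI coat. The Copb1 stretch is chr1:177872813-177872872 (minus strand) and the Copb2 stretch chr8:108040651-108040710 (plus strand), with motifs from -6 to 1 and from -10 to -3. These are the beta and beta-prime subunits of COPI. The Kdelr3 stretch is chr7:112959505-112959564 (plus strand), with the motif from -101 to -94. Kdelr3 encodes a receptor that retrieves ER residents carrying a KDEL tail. The motif lay on the gene's strand in Sec23a and Copa and on the other strand in Copb1, Copb2 and Kdelr3.

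**Figure D1:**
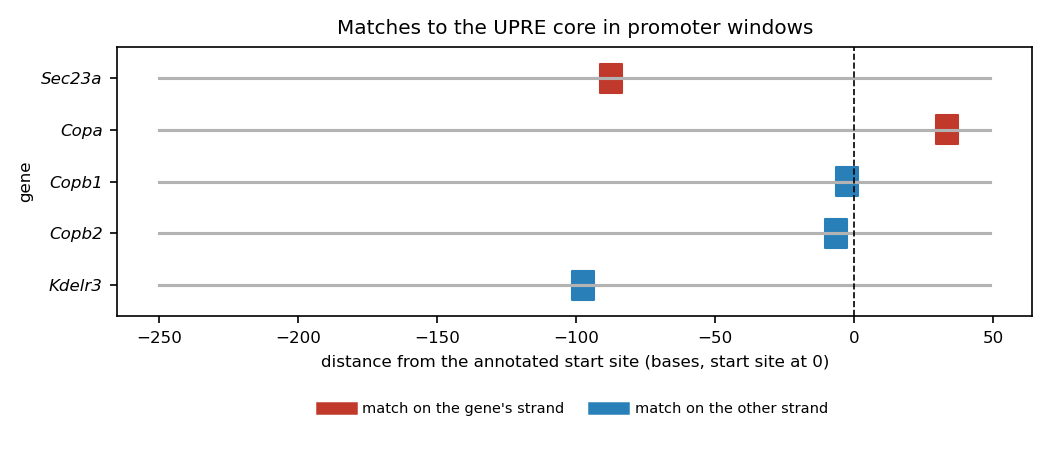
Position of the UPRE core in the 5 promoter windows that hold it, as distance in bases from the annotated start site; grey lines are the windows, red marks a match on the strand of the gene and blue a match on the other strand. The motifs of Copb1 and Copb2 lie at or just before the start site, and those of Sec23a and Kdelr3 lie further before it.

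Libraries held 22.3 to 40.2 M counts in genes (median 27.8 M), and 7 of the 9 beta cell markers listed were in the table, all detected in every condition. The 2 insulin genes took 9.32% to 45.9% of counts, and scaling factors (TMM) ran between 0.682 and 1.32. The condition 3 library of preparation 2 stood apart, with 23.4% of its entries from reads aligned to more than 1 place, against 4.92% to 8.51% in the other libraries. Endothelial markers summed to 161 to 217 counts per M counts in genes (CPM) in the 3 h control, both 3 h compound groups and condition 2, and to 25.3 to 104 CPM in the 24 h GLT group, both 24 h compound groups and condition 3, so that condition 2 stood with the groups labelled 3 h and condition 3 with those labelled 24 h. Exocrine carry-over was low: the 15 acinar markers in the table summed to 98.9 to 139.9 CPM in 24 h GLT with compound D and 124 to 152 CPM in 24 h GLT, and Prss2, Cpb1, Cela3b, Ctrc, Pnlip, Cel, Ptf1a and Rbpjl were at 0 in at least 1 library. Beta cell markers summed to 85943 to 582692 CPM in 24 h GLT with compound D and 79238 to 273796 CPM in 24 h GLT. The part of these levels in the results below was not tested, and in bulk islets fewer cells of a type and less RNA per cell cannot be told apart.

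All 46 genes had counts in all 21 libraries. Over the libraries the ratio of a gene's highest to its lowest CPM had a median of 2.03, and it reached 2 for 25 genes and 3 for 12. Rpn1, an oligosaccharyltransferase subunit, was the steadiest, with a ratio of 1.36. Srp72, a protein of the signal recognition particle, had the widest ratio, 14.7, which came from 1 library: it had 14.5 CPM in condition 3 of preparation 2 and 119 to 213 CPM in the other 20.

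Extreme values gathered in a few libraries. The 24 h GLT with compound E library of preparation 1 held the highest value of 22 of the 46 genes and the lowest of 1, and 42.6% of its counts were insulin. The 24 h GLT with compound D library of preparation 2 held the lowest value of 16 and the highest of 1, with 43.3% insulin. The main counts of the 24 h compound comparisons are given below with and without these libraries.

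**Figure D2:**
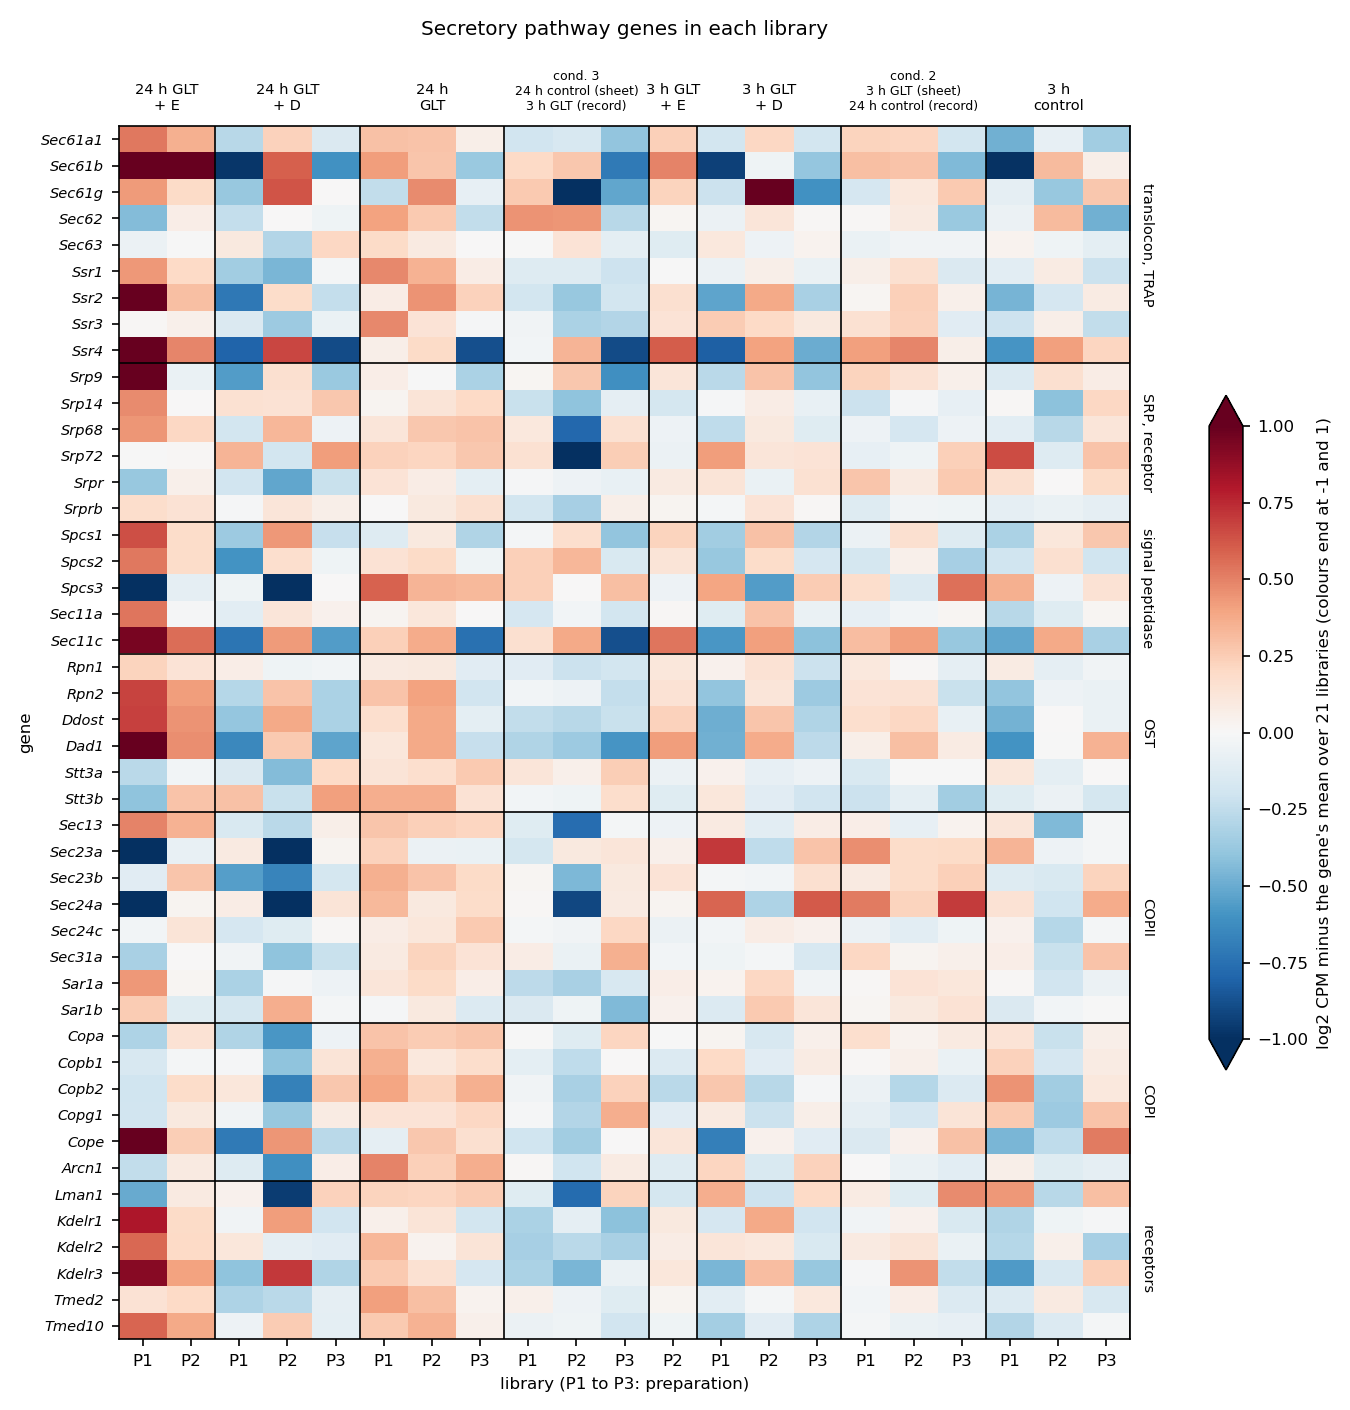
Level of the 46 genes in every library, as log2 CPM minus the gene's mean over all 21 libraries; rows are genes ordered by complex and columns are libraries grouped by condition and preparation. Columns of 24 h GLT with compound D are mostly blue (lower) beside those of 24 h GLT, and the compound E library of preparation 1 holds both the strongest red and some of the strongest blue cells.

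Whether compound D changed these genes under GLT was asked at 24 h, with 3 libraries a group. Secretory pathway genes lay lower with compound D almost throughout, but by small amounts: 41 of the 46 had a fold change below 0 on the log2 scale, against 49.1% of all genes, and the median was -0.25, against 0.01 over all 12576 genes tested. Only Sec23b, a COPII coat gene, passed the test by itself (1 of 46 at an adjusted p below 0.05, edgeR quasi-likelihood test with Benjamini-Hochberg adjustment over all genes). The share called over all genes tested was 4.08%, so the count of called genes was not above the background. By a looser description 26 of 46 were lower with compound D in all 3 preparations, against 19% of all genes, and 13 had groups that did not overlap and were lower, against 8.86%. At an unadjusted p below 0.05 there were 10 genes, all lower, against 16.8% of all genes in either direction.

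The preparations differed in how far the genes moved. The median of the 46 log2 differences within a preparation ran between -0.35 and -0.10. When the preparation 2 library with compound D, which held more of the lowest values than any other, was left out, the median over the genes was -0.27 and 0 of the 46 passed, against 1.15% of all genes. Of the 46, 41 were then below 0, against 50.4% of all genes, 34 were lower in both remaining preparations, against 31.2%, and 25 had groups that did not overlap and were lower, against 17.6%. At an unadjusted p below 0.05 there were 8, against 13.9%. The median was -0.16 without the compound D library of preparation 1 and -0.15 without the whole of that preparation.

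COPII coat genes, which form the vesicles that leave the ER, had a median log2 fold change of -0.33 with compound D, and 7 of 8 lay below 0. Sec23b (gene ID 362226) encodes one of the pair of SEC23 proteins of the inner coat. It had 258, 239 and 335 CPM in 24 h GLT with compound D (preparations 1, 2 and 3), against 482, 461 and 432 CPM in 24 h GLT. Every compound D value lay below every GLT value. Sec23b fell by 0.74 on the log2 scale (SE 0.16, adjusted p = 0.0193, edgeR), with means of 277 ± 50.5 CPM with compound D and 458 ± 25.4 CPM in 24 h GLT (SD, n = 3 each).

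The Sec23b call was sensitive to single libraries, though its direction was not. The adjusted p (edgeR) became 0.0758 without the compound D library of preparation 1, 0.109 when that of preparation 2 was dropped, 0.108 without the GLT library of preparation 1 and 0.101 without that of preparation 2. The call held without the library of preparation 3 in either group, and leaving out the compound D library of preparation 3 raised the count of genes called to 5, against 4.94% of all genes in that fit: Sec23b, Copa, Arcn1, Ssr1 and Tmed2.

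Sec13, which encodes a subunit of the outer COPII cage, had 81.3, 75.1 and 94.2 CPM in 24 h GLT with compound D, against 109.8, 107 and 105 CPM in 24 h GLT. The groups did not overlap, and the log2 fold change was -0.37 (SE 0.14, adjusted p = 0.178, edgeR), which did not pass. Its partner in the cage, Sec31a, had 183, 142 and 161 CPM with compound D, against 200.4, 220.01 and 207 CPM in 24 h GLT. Again no values overlapped and the test was not passed (log2 fold change -0.37, adjusted p = 0.238, edgeR). Sar1a, the small GTPase that starts coat assembly, had 317, 391.6 and 380.5 CPM with compound D, against 429, 451 and 414 CPM in 24 h GLT. It was lower in each preparation, and the log2 fold change was -0.25 (adjusted p = 0.422, edgeR). Sar1b, its paralogue, lay at 0.08 and was the COPII gene above 0.

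COPI coat genes, which form the vesicles that return from the Golgi, had the lowest median of the 7 complexes, -0.35, and all 6 lay below 0. Copa had 406, 336 and 484 CPM in 24 h GLT with compound D, against 610.2, 597 and 609 CPM in 24 h GLT. The 3 GLT values were almost equal and stood above all compound D values. Its log2 fold change was -0.58 (SE 0.16), which missed the threshold narrowly (adjusted p = 0.0505, edgeR). Arcn1, the delta subunit of the coat, had 434, 311 and 499.8 CPM with compound D, against 671, 562 and 612 CPM in 24 h GLT. It too did not overlap, at a log2 fold change of -0.58 (SE 0.16, adjusted p = 0.059, edgeR). Copb1 had 333, 254 and 367 CPM with compound D, against 431, 361 and 381 CPM in 24 h GLT. Here the groups overlapped, because the compound D value of preparation 3 exceeded the GLT value of preparation 2 (log2 fold change -0.30, adjusted p = 0.298, edgeR).

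The genes with a UPRE core in their window covered a wide range. Their log2 fold changes with compound D were -0.29 for Sec23a, -0.58 for Copa, -0.30 for Copb1, -0.40 for Copb2 and -0.05 for Kdelr3, and none passed. Sec23b, the gene that passed, had none of the 3 elements in its window, chr3:152392433-152392732 on the plus strand of GRCr8.

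At the entry to the ER, 8 of the 9 genes of the translocon and of the TRAP complex lay below 0 with compound D, with a median of -0.27. TRAP, the translocon-associated protein complex, sits beside the Sec61 channel and aids the entry of some clients, insulin among them. Ssr1, its alpha subunit, had 405, 376 and 509.6 CPM in 24 h GLT with compound D, against 721, 655 and 542 CPM in 24 h GLT. The groups did not overlap, and preparation 3 differed least (log2 fold change -0.56, SE 0.16, adjusted p = 0.0592, edgeR). Ssr3, the gamma subunit, had 447, 383 and 472 CPM with compound D, against 691, 542 and 491 CPM in 24 h GLT. All GLT values again lay above all compound D values (log2 fold change -0.39, adjusted p = 0.18, edgeR). Sec61a1, the pore itself, had 543, 774 and 598 CPM with compound D, against 808, 802 and 686 CPM in 24 h GLT. These groups overlapped, and the difference was within the spread (log2 fold change -0.27, adjusted p = 0.401, edgeR).

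Signal recognition particle genes, the targeting step, had a median of -0.11 over the 6 genes in the table by symbol. Srpr (gene ID 315548), the receptor subunit that binds the particle at the ER membrane, had 667, 531 and 653 CPM in 24 h GLT with compound D, against 835, 802 and 709 CPM in 24 h GLT. Its groups did not overlap (log2 fold change -0.35, adjusted p = 0.244, edgeR). The row named Srp54, matched to Srp54a by its gene ID, encodes the subunit that binds the signal peptide. It ran between 135 and 327 CPM over all libraries and fell by 0.67 on the log2 scale with compound D (SE 0.18, adjusted p = 0.0493, edgeR), close to the threshold. Signal peptidase genes had a median of -0.22. Spcs3, a peptidase subunit, had 140.01, 48.8 and 145 CPM with compound D, against 217, 182 and 179.8 CPM in 24 h GLT. Most of its log2 fold change of -0.87 (SE 0.33, adjusted p = 0.18, edgeR) came from preparation 2, where the log2 difference was -1.90 against -0.63 and -0.31 in preparations 1 and 3.

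Oligosaccharyltransferase genes all lay below 0, 6 of 6, with a median of -0.26. Stt3a, the catalytic subunit that works alongside the translocon, had 506, 414 and 641 CPM in 24 h GLT with compound D, against 609, 626 and 669 CPM in 24 h GLT. Values overlapped (log2 fold change -0.30, adjusted p = 0.325, edgeR). Ddost, a non-catalytic subunit, had 442, 751 and 466 CPM with compound D, against 649.8, 754 and 541 CPM in 24 h GLT. It was close to GLT in preparation 2 and lower in preparations 1 and 3, and did not pass (log2 fold change -0.25, adjusted p = 0.598, edgeR).

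Cargo and retrieval receptors, which load vesicles and bring back ER residents, had a median of -0.19, with 5 of 6 below 0. Tmed2, a p24 family receptor that packs cargo into both coats, had 561, 577 and 654 CPM in 24 h GLT with compound D, against 925, 856 and 713 CPM in 24 h GLT. No values overlapped, at a log2 fold change of -0.47 (SE 0.14, adjusted p = 0.0772, edgeR). Kdelr1, a KDEL receptor, lay at 0.07 and was the receptor above 0.

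**Figure D3:**
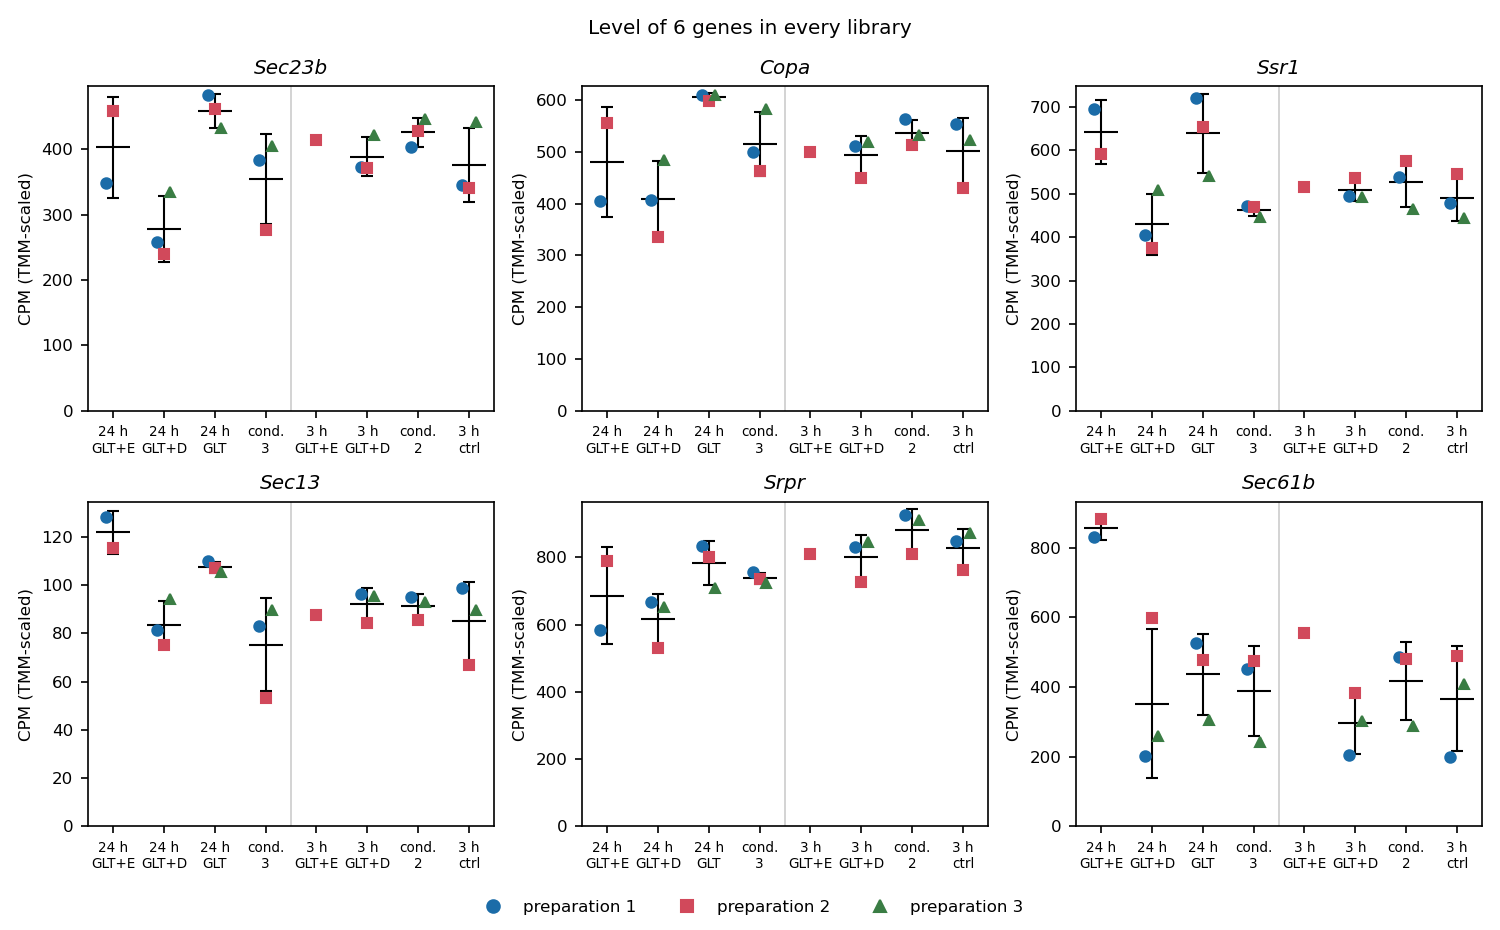
Level of 6 genes in every library, in CPM on axes that start at 0, with 1 panel per gene; marker shape and colour give the preparation. In the Sec23b panel the 3 libraries of 24 h GLT with compound D, at 239 to 335 CPM, lie below the 3 of 24 h GLT, at 432 to 482 CPM.

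Compound E was compared with GLT alone at the same time and dose, with 2 libraries against 3. No gene of the 46 passed, nor did any of the 12576 tested (0% called, edgeR). At an unadjusted p below 0.05 there were 8 of the 46, against 6.46% of all genes (813), and DESeq2 called 0 of the 46. The median of the 46 was 0.10, against 0.04 over all genes, with 25 above 0, against 53.3% of all genes, and 21 below. The 95% interval of the fold change held 0 for 38 of the 46, and it reached a median of 0.41 to either side on the log2 scale. Changes smaller than that were mostly not detectable with these libraries. Larger ones could also miss the adjusted threshold, as Sec61b (0.86) and Dad1 (0.79) did.

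The 2 compound E libraries differed in the size of the changes. Of the 46 genes, 15 were higher than GLT in both preparations, against 30.3% of all genes, and 20 were lower in both, against 30.2%. Against GLT of its own preparation, the library of preparation 1 had 3 genes more than 2-fold higher and 3 more than 2-fold lower, and that of preparation 2 had 0. The share of all genes past 2-fold was not counted, so these counts are not a result about the 46 by themselves. The genes that differed most between the 2 libraries included Cope, the epsilon subunit of COPI, which stood at a log2 difference of 1.22 in preparation 1 and -0.02 in preparation 2. Sec24a, a cargo adaptor of COPII, stood at -1.53 and -0.07. When the compound E library of preparation 1 was the only one kept, 16 of the 46 genes were called against 24 h GLT (9 higher and 7 lower), against 21.6% of all genes in that fit. When that of preparation 2 was the only one kept, 0 were, against 0% of all genes, and 0 had an unadjusted p below 0.05, against 0.661%. The median of the 46 was then 0.01, with 24 above 0, against 48.6% of all genes. In those fits the lone library is assumed to vary like the other groups.

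**Figure D4:**
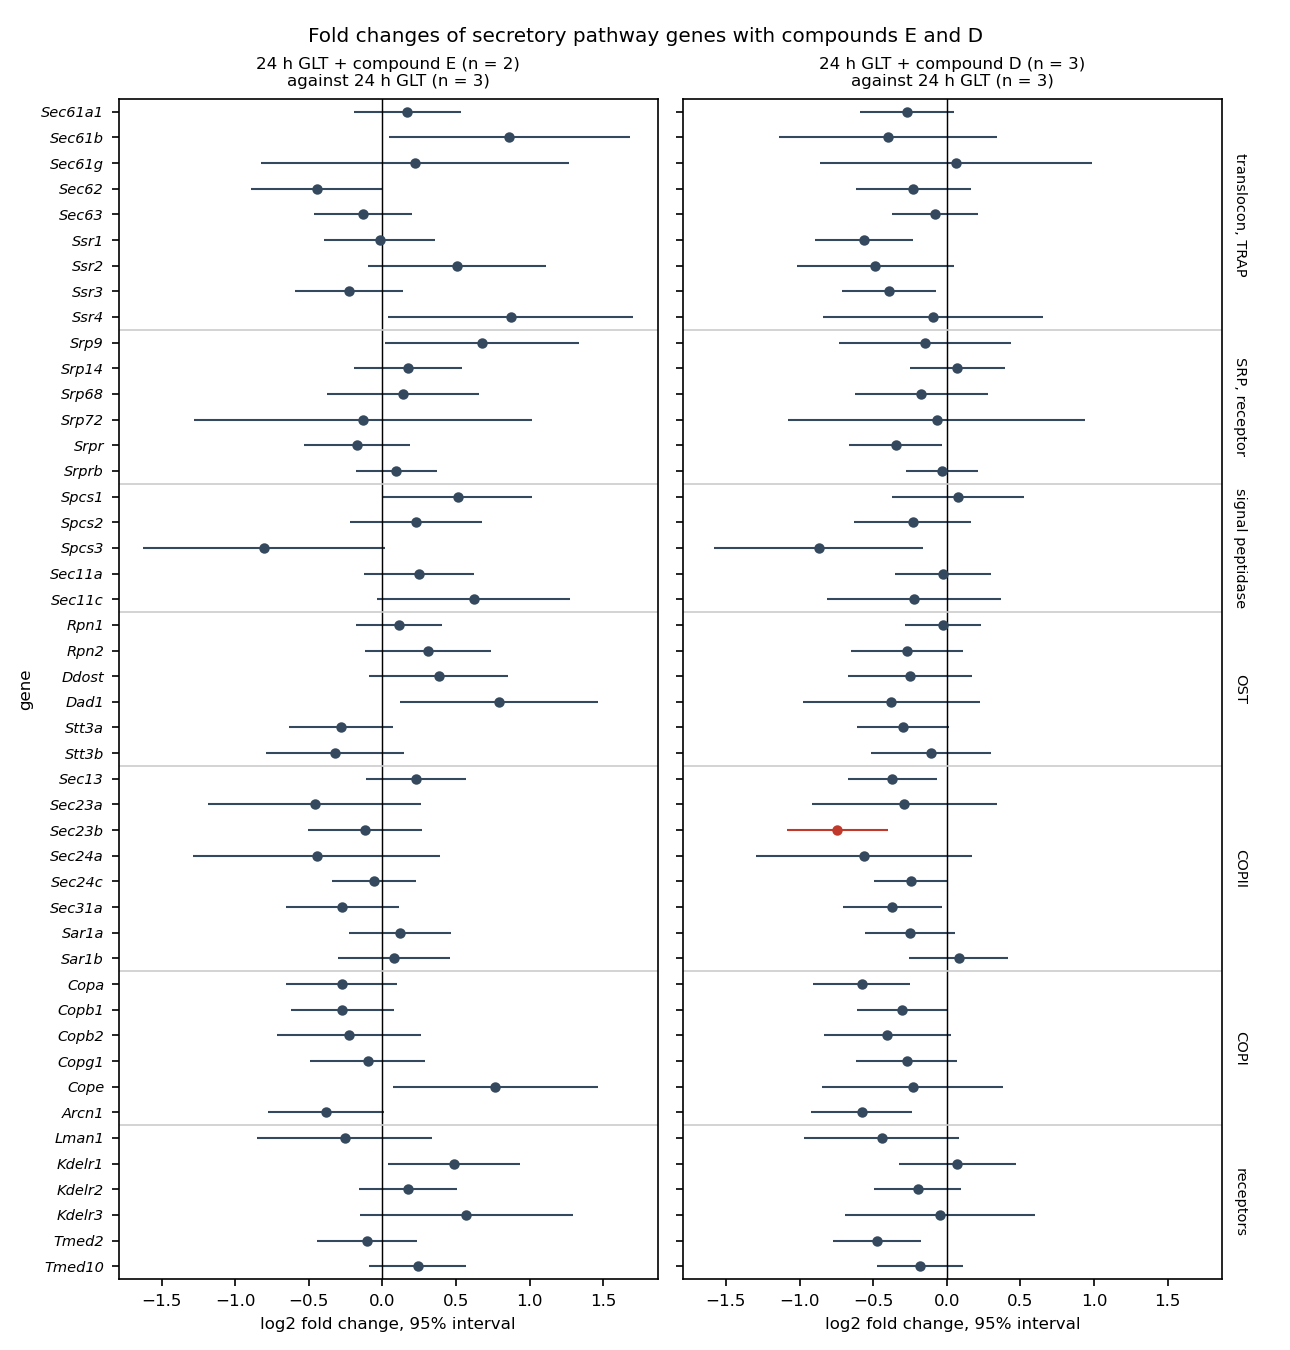
Log2 fold changes of the 46 genes with their 95% intervals (edgeR), for compound E on the left and compound D on the right, each against 24 h GLT; red marks an adjusted p below 0.05. Points of compound D lie mostly left of 0, and Sec23b is the 1 red point; both panels use the same 24 h GLT libraries.

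The compounds could be set against each other directly only at 24 h, as 1 pair with 2 and 3 libraries at the same dose. The 46 genes lay higher with compound E: 40 were above 0, against 50.2% of all genes, the median was 0.29 against 0.003 over all genes, and 18 had groups that did not overlap and were higher, against 11.5% of all genes. None passed at an adjusted p below 0.05, against 3.01% of all genes tested, and 18 had an unadjusted p below 0.05, against 18.4%. Sec13 had 128 and 115 CPM with compound E (preparations 1 and 2), against 81.3, 75.1 and 94.2 CPM with compound D. All compound E values were above all compound D values, at a log2 fold change of 0.60 (SE 0.16, 95% interval 0.26 to 0.94, adjusted p = 0.0585, edgeR). Dad1, a small oligosaccharyltransferase subunit, had 452 and 270.2 CPM with compound E, against 125, 235 and 136 CPM with compound D. Its compound E values were far apart (log2 fold change 1.16, SE 0.32, adjusted p = 0.061, edgeR). Sec23b had 348 and 457 CPM with compound E, against 258, 239 and 335 CPM with compound D. The groups did not overlap, at a log2 fold change of 0.62 (SE 0.18, 95% interval 0.24 to 1.01, adjusted p = 0.0803, edgeR).

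For 28 of the 46 genes the 95% interval of the difference between the compounds held 0, which does not show that the compounds act alike, since the intervals reached a median of 0.41 to either side on the log2 scale. Signal peptidase, COPI and receptor genes had fitted fold changes above 0 in every case (5 of 5, 6 of 6 and 6 of 6), but not in each preparation. In preparation 1 the COPI log2 differences were -0.003 for Copa, -0.15 for Copb1, -0.31 for Copb2, -0.15 for Copg1, -0.11 for Arcn1 and 1.83 for Cope. In preparation 2 Cope stood at -0.20 and the other COPI genes above 0. Spcs3 changed direction as well, from -1.15 in preparation 1 to 1.47 in preparation 2. The DESeq2 Wald test, run as an alternative, called 7 of the 46, against 6.64% of all genes, all higher with compound E: Sec13, Dad1, Ssr2, Sec23b, Sec61b, Ssr1 and Tmed10. Single libraries moved the count in edgeR as well: leaving out the compound E library made in preparation 2 gave 19, against 22.3% of all genes in that fit. Leaving out the compound D libraries of preparations 2 and 3 in turn gave 3 and 1, against 3.58% and 2.53% of all genes. Leaving out the preparation 1 library of compound E gave 0, against 0.366%, and that of compound D 0, against 1.09%. More genes lay above 0 than below it in both fits that dropped a library with many extreme values. With the preparation 1 library of compound E dropped, 38 were above 0, against 49.5% of all genes, and 25 had a compound E value above all compound D values, against 16.9%. With the preparation 2 library of compound D dropped, 33 were above 0, against 48.9%, and 26 did not overlap and were higher, against 28.7%. The comparisons of E with D and of each with GLT share libraries, so their values are not independent.

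At 3 h compound E had a single library, so values are given without a test. Against the 3 h GLT with compound D library of the same preparation, the median log2 difference of the 46 genes was -0.02 and 0 of them differed by more than 2-fold. The share of all genes past 2-fold was not counted here either. Sec61g and Sec61b, the small subunits of the channel, differed most, in opposite directions. Sec61g had 384 CPM with compound E and 730.1 CPM with compound D, and Sec61b 556 CPM with compound E and 383 CPM with compound D. Sec23b had 414 CPM with compound E and 371 CPM with compound D, and Copa 499.7 and 449 CPM in the same order. Against condition 2 (24 h control by the records, 3 h GLT by the sheet) and against the 3 h control of that preparation, the median log2 differences were -0.01 and 0.14.

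With compound D under GLT, 24 h was also compared with 3 h. None of the 46 passed, against 6.11% of all genes tested, and 3 had an unadjusted p below 0.05, against 22.2%. The median was -0.09, with 33 of 46 below 0, against 48.7% of all genes. Without the 24 h library of preparation 2 the median was -0.11 and 39 were below 0, against 51.7%, and without the 3 h library of preparation 2 the median was 0.01. All 8 COPII genes lay below 0, with a median of -0.17. Sec23b had 258, 239 and 335 CPM at 24 h, against 372, 371 and 422 CPM at 3 h, with no overlap and a log2 fold change of -0.49 (SE 0.16, adjusted p = 0.0828, edgeR). It passed when the fit held only the groups compared (adjusted p = 0.0304, edgeR), as did Sec23a and Sec24a, in a fit that called 16.2% of all genes. At 3 h, GLT with compound D differed from 3 h control in none of the 46, against 0.103% of all genes, and 0 had an unadjusted p below 0.05, against 6.5%, with a median of 0.01.

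The effect of GLT without compounds rests on the 6 libraries with conflicting labels, so each comparison below carries both readings. 24 h GLT (condition 4) against condition 3 compares 24 h GLT with 24 h control in the sheet and 24 h with 3 h of GLT in the records. Of the 46 genes, 42 lay above 0, against 49.5% of all genes, the median was 0.28 against -0.004 for all genes, and 32 were higher in all 3 preparations, against 27.4% of all genes. The groups did not overlap and were higher for 19, against 14.4%. Without the condition 3 library of preparation 2, which stood apart, 41 lay above 0, against 49.9% of all genes, 36 were higher in both remaining preparations, against 37.3%, 22 did not overlap and were higher, against 18.9%, and the median was 0.21. Sec13 passed alone (1 of 46, against 5.97% of all genes tested). It had 109.8, 107 and 105 CPM in 24 h GLT, against 83.1, 53.3 and 89.4 CPM in condition 3.

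Sec13 rose by a log2 fold change of 0.54 (SE 0.14, adjusted p = 0.0389, edgeR), and every value in 24 h GLT lay above every value in condition 3. The adjusted p (edgeR) was 0.0439 without the condition 3 library of preparation 3, where the call held. It was 0.0717 and 0.178 without those of preparations 1 and 2, and 0.103, 0.174 and 0.0665 without the 24 h GLT libraries of preparations 1, 2 and 3, where it was lost. Kdelr2, a KDEL receptor, came next, at a log2 fold change of 0.48 (adjusted p = 0.0554, edgeR), and Sec61a1 stood at 0.46 (adjusted p = 0.0848, edgeR). Receptor genes had a median of 0.33 and translocon and TRAP genes of 0.41, and COPII and COPI genes lay above 0 in 8 of 8 and 6 of 6 cases.

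Condition 2 is the 24 h control by the records, and the sheet lists it as 3 h GLT. Against it, 24 h GLT called none of the 46, although 8.52% of all genes tested were called. The median was 0.12, with 36 of 46 above 0, against 48.7% of all genes, and 3 at an unadjusted p below 0.05, against 23.5%. Sec13 stood at a log2 fold change of 0.24 and Sec23b at 0.11. On either reading, then, more genes lay above 0 than below it in 24 h GLT against its 24 h control, and which value applies depends on the label. These comparisons share the 24 h GLT libraries with those of the compounds.

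Compound D at 24 h against condition 2 is a comparison with 24 h control by the records, so that GLT medium and compound both differ. By the sheet it is a comparison with 3 h GLT, so that time and compound both differ. It had the most called genes among the 46 of any comparison. There were 2, both lower, against 6.6% of all genes called lower and 12.5% called in either direction. Sec23b had 258, 239 and 335 CPM in 24 h GLT with compound D, against 403, 428 and 446 CPM in condition 2, and it fell by 0.63 on the log2 scale (SE 0.16, adjusted p = 0.0194, edgeR). Srpr had 667, 531 and 653 CPM with compound D, against 925, 811 and 913 CPM in condition 2, and it fell by 0.52 (adjusted p = 0.033, edgeR). Neither gene's groups overlapped. Both calls were lost without the compound D library of preparation 1 (adjusted p = 0.0626 for Sec23b and 0.0551 for Srpr, edgeR) or of preparation 2 (0.0802 and 0.135), and likewise without the condition 2 library of preparation 1 (0.0659 and 0.122) or of preparation 2 (0.0819 and 0.0684). With the preparation 3 library of compound D left out, Sec23b held (0.0284) and Srpr did not (0.0638), and the same was so without the condition 2 library of preparation 3 (0.0459 and 0.108).

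The remaining comparisons with conditions 2 and 3 called none of the 46. In each, condition 2 stands for 24 h control and condition 3 for 3 h GLT by the records, and the other way round by the sheet. Compound D at 24 h against condition 3 had a median of 0.01 (0.716% of all genes called), and the 3 h compound D group had medians of -0.01 against condition 2 (0.493% called) and 0.10 against condition 3 (6.93% called). Condition 2 against 3 h control had a median of 0.09 (2.31% called) and condition 3 against 3 h control one of -0.07 (0.692% called). The GLT effect at 24 h minus that at 3 h, which is the same contrast under both readings, had a median of 0.19, with 38 of 46 above 0, against 51.7% of all genes, and 20 higher in all 3 preparations, against 18.7%. None passed, against 0.0716% of all genes, and 0 of the 46 had an unadjusted p below 0.05, against 8.35%.

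**Figure D5:**
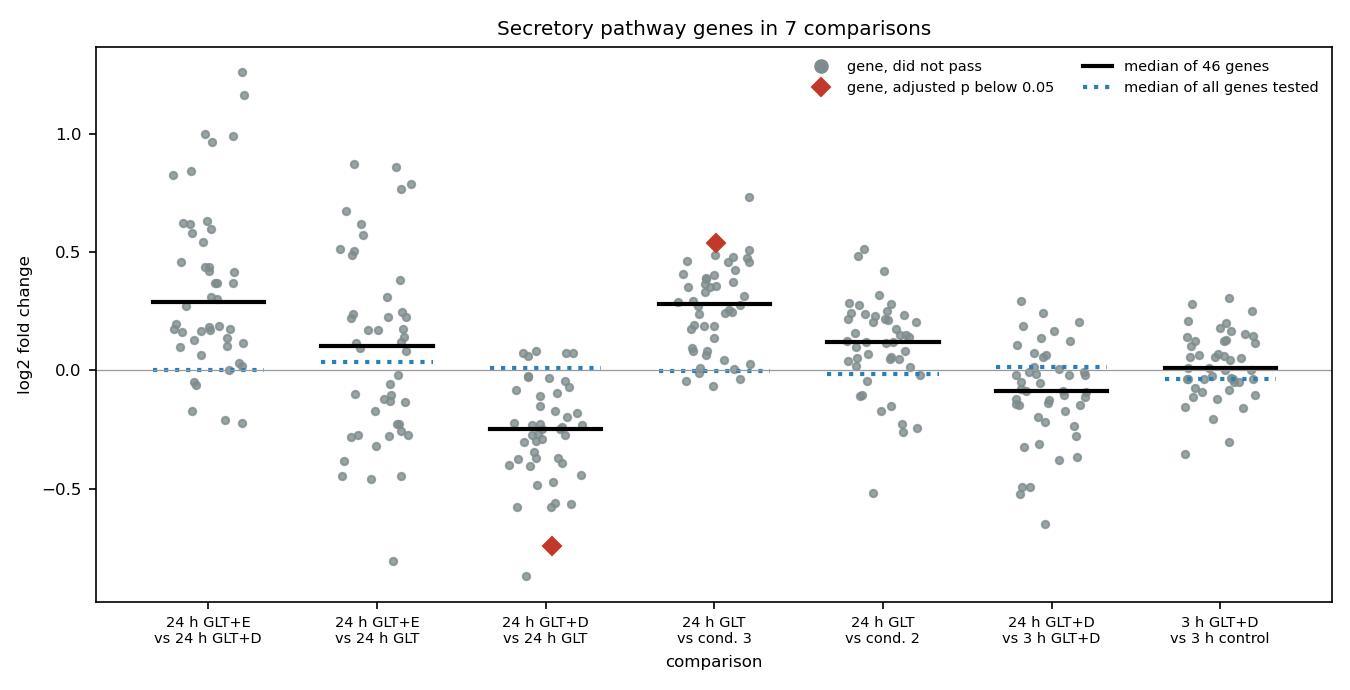
Log2 fold changes of the 46 genes in 7 comparisons (edgeR); each grey point is a gene that did not pass, red diamonds mark an adjusted p below 0.05, the black line is the median of the 46 and the dotted blue line the median of all genes tested. The black line sits at -0.25 for compound D against GLT at 24 h, at 0.28 for 24 h GLT against condition 3, and near 0 for compound D against control at 3 h.

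Other lists of the secretory pathway held further genes that passed. ER chaperones and stress regulators, a list of 22, had 7 genes lower with compound D at 24 h against GLT, against 2.12% of all genes called lower, and 0 higher, with a median of -0.69. Hspa5, the ER chaperone BiP, averaged 2777 CPM with compound D and 5954 CPM in 24 h GLT (log2 fold change -1.10, SE 0.14, adjusted p = 8.3e-04, edgeR). Hsp90b1, the chaperone GRP94, stood at -0.83 (adjusted p = 0.00999) and Pdia4, a disulphide isomerase, at -0.75 (adjusted p = 0.0104). With compound E against compound D, 10 of the 22 were higher, against 1.83% of all genes called higher, and 0 lower, Hspa5 among them (log2 fold change 1.15, adjusted p = 0.00201, edgeR).

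The list of lipid-linked oligosaccharide genes, which build the sugar that oligosaccharyltransferase transfers, had 2 of 29 lower with compound D, against 2.12% of all genes called lower. They were Alg12, an ER mannosyltransferase (log2 fold change -0.55, adjusted p = 0.0294, edgeR), and Pgm3, which makes the precursor of UDP-GlcNAc (-0.81, adjusted p = 0.035). Both were higher with compound E than with compound D (0.86, adjusted p = 0.00523, and 1.01, adjusted p = 0.0243, edgeR). Among 27 other ER exit genes tested, Tfg, which organises ER exit sites, was lower with compound D (-0.53, adjusted p = 0.0472, edgeR).

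Other lists held 0 calls with compound D against GLT at 24 h, against 4.08% of all genes called in either direction. These were 0 of 21 translocation and insertion factors, 0 of 4 further oligosaccharyltransferase subunits (median -0.43), 0 of 4 glycan trimming enzymes and 0 of 31 COPI, p24 and Golgi factors (median -0.25). With lists this short, 0 calls cannot be told apart from that share. In 24 h GLT against condition 3, 5.97% of all genes tested were called in either direction. There 6 of the 22 ER chaperones and stress regulators were higher and 0 lower, Hspa5 among them (0.77, adjusted p = 0.00621, edgeR). Camlg, which takes part in inserting tail-anchored proteins, was higher (1 of 21, 0.94, adjusted p = 0.0188, edgeR). Of 27 ER exit genes, Sec22b, a SNARE of ER to Golgi vesicles, was higher (0.76, adjusted p = 0.0112, edgeR). Sec16b, a scaffold of ER exit sites, was lower (-1.22, adjusted p = 0.0254, edgeR). Man1b1, an ER mannosidase, was higher (1 of 4, 0.55, adjusted p = 0.0185, edgeR), as was Alg12 (1 of 29, 0.46, adjusted p = 0.0488, edgeR). Cog1, of the Golgi tethering complex COG, was lower (1 of 31, -0.54, adjusted p = 0.0351, edgeR). With compound D at 24 h against 3 h, 6.11% of all genes were called, and 6 of the 22 ER chaperones and stress regulators were lower. Bcap31, an ER membrane chaperone, was higher there (1 of 21, 0.72, adjusted p = 0.00583, edgeR).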

How the data were processed

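Counts per gene were the unit of the deposited table: per the labels' protocols, the authors used TopHat2 (2.0.3) with Bowtie2 (2.0.0) to place 100 bp read pairs on the rn5 genome and HTSeq to count them, with no normalization. The annotation and strand setting are not given in the sources used here, so reads of a gene and of an antisense or overlapping partner, or of a near-identical copy, may not be separable. The 5 rows without a gene (reads outside genes made up 10.3% to 18.7% of a column, ambiguous reads 0.161% to 2.32%, multiply aligned reads 4.92% to 23.4%) entered neither library sizes nor tests.

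The table was fitted whole in R 4.3.3 with edgeR 4.0.16 (quasi-likelihood F test, TMM, the tool's own filter on low counts, 12576 genes kept), over all 21 libraries with a term for each condition and preparation as a block, and p-values were adjusted over all genes at 0.05 (Benjamini-Hochberg). Printed levels are CPM on TMM-scaled library sizes and are not corrected for gene length. Samples were grouped by the sample records, and the conflict with the deposited sheet for 6 of the 21 libraries is carried in the text. The fit was tested on simulated counts with 200 changed genes.

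Preparation numbers pair the libraries by design, since each preparation is 1 pool of islets from 8 rats. After condition means were removed, libraries of 1 preparation correlated with each other (mean r 0.331, by preparation 0.194, 0.373 and 0.425; compound E groups not used). Every pair of libraries in a group differed by more than counting noise (chi-square over its degrees of freedom at least 27.7).

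Members and gene lists were chosen with earlier results of these data known. Fold changes are given for genes that passed, and per-library values for the 12 members with the smallest adjusted p in compound D against GLT at 24 h plus Sec61a1, Ddost, Copa and Sar1a. Up to 3 genes that passed are named from each other list. Dad1, Sec61b, Rpn1, Srp72, Cope, Copg1, Sec24a, Sec23a, Copb2, Kdelr1, Kdelr2, Kdelr3, Sar1b, Ssr2, Stt3b, Sec61g and Tmed10 were added after their values were seen. Promoter sequences are from RefSeq (GRCr8), another build than that of the counts, matched by gene ID. Alternatives were RLE or no scaling beyond library size, DESeq2 1.42.0, no filter, no block, only the groups compared, only the 15 libraries with undisputed labels, and each library or preparation left out. The counts of members above or below 0, in all preparations and without overlap were repeated without the libraries that stood apart, a choice made after seeing the data.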

Additional observations from a re-analysis of the deposited data

How the results depend on the processing

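Directions held more firmly than calls. Of the settings run for the count of called genes, 171 left it within 1.5 times its value, 16 gave more, 31 fewer and 1 reversed its direction. Most comparisons had 0 called genes in the full fit, and a count of 0 that stayed at 0 is among the 171. That figure therefore does not show that calls held. The 4 called gene values (Sec23b in 2 comparisons, Sec13 and Srpr) kept their direction in all settings run, but passed in 5 of 16 settings for Sec23b with compound D against GLT (adjusted p 3.7e-04 to 0.297, edgeR or DESeq2), 3 of 15 for Sec13 in 24 h GLT against condition 3, and 6 and 4 of 15 for Sec23b and Srpr in compound D against condition 2. For compound D against GLT at 24 h, 2 genes passed with RLE scaling, 5 with DESeq2, and 0 with library size alone, without the block on preparation, with only the groups compared, or with the 15 undisputed libraries. DESeq2 called 7 for compound E against D, 1 for compound D at 24 h against 3 h and 5 for 24 h GLT against condition 3. Fits of only the groups compared called 3 for compound D over time, 5 for 24 h GLT against condition 2 (4 higher, 1 lower) and 0 for 24 h GLT against condition 3 and for compound D against condition 2. For 24 h GLT against condition 3, 0 passed with library size alone, without the filter or without the block, and for compound D against condition 2, 0 passed with library size alone. The cause of these changes was not tested. Shares of all genes called are not set beside these counts here, so a higher count is not by itself a result about the secretory pathway genes.

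The pairing by preparation changed the calls named above: without it 0 of the 46 passed for compound D against GLT and for 24 h GLT against condition 3, and no other count of called genes among the 46 changed. Scaling by library size alone shifted the median of all genes by -0.40 for compound E against GLT and by -0.39 for E against D. The medians of the 46 were then -0.31 and -0.11, 0.37 for 24 h GLT against condition 2, -0.18 for conditions 2 and 3 each against 3 h control, 0.31 and 0.24 for 3 h compound D against conditions 2 and 3, 0.12 for compound D at 24 h against condition 2, and 0.53 for the difference of GLT effects.

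With a library or preparation left out, the called genes numbered 0 to 5 for compound D against GLT, 0 to 16 for E against GLT, 0 to 24 for E against D, 0 to 1 for 24 h GLT against condition 3 or condition 2 and for 3 h compound D against condition 3, and 0 to 2 for compound D against condition 2. In that last comparison, leaving out the compound D library of preparation 2 left 1 gene, Stt3b, higher instead of 2 lower. Medians ran between -0.33 and -0.15 for compound D against GLT, 0.0098 and 0.19 for E against GLT, 0.21 and 0.36 for E against D, -0.14 and 0.010 for compound D at 24 h against 3 h (above 0 without the 3 h library of preparation 2), 0.19 and 0.37 for 24 h GLT against condition 3, 0.10 and 0.24 for the difference of GLT effects, -0.14 and -0.0023 for condition 3 against 3 h control, 0.10 and 0.19 for 24 h GLT against condition 2, -0.057 and 0.0042 for 3 h compound D against condition 2, and -0.080 and 0.15 for compound D at 24 h against condition 3. The counts of called genes above are given without the share of all genes in the same fit. A high count there is therefore not by itself a result about these genes. Counts over all genes moved too, but their ranges are not matched to single fits. With libraries left out and with other settings they ran over 0 to 620 and 215 to 908 for compound D against GLT (513 in full), 0 to 4543 and 0 to 835 for E against D (378), 9 to 798 and 240 to 1885 for compound D over time (769), 1 to 103 and 3 to 109 for compound D against control at 3 h (13), 15 to 455 and 292 to 1285 for 24 h GLT against condition 3 (751), 21 to 1222 and 604 to 3263 against condition 2 (1072), and 338 to 1675 and 726 to 2130 for compound D at 24 h against condition 2 (1576). For E against GLT they ran from 0 to 3241 with libraries left out and stayed at 0 with other settings. With 2 or 3 libraries a group, differences below about 0.36 to 0.41 on the log2 scale were mostly not detectable for these genes.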
